A study of Mus musculus with 24 samples.

Results

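The genes described here are 33 genes of the neuropeptide system of the mouse brain: 23 precursors of neuropeptides, 6 granins and granule proteins (Scg2, Scg3, Scg5, Chga, Chgb and Vgf) and 4 genes of peptide processing (Pcsk1, Pcsk2, Pcsk1n and Cpe). They were taken from a list by gene symbol, not by their values. Every one of the 33 symbols matched a gene in the tables of 37621 gene entries, and 32 had 10 or more counts in 3 or more of the 24 libraries, as did 17915 genes in all. The remaining gene, Hcrt, reached 10 counts in 2 libraries and is described by its counts.

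The study sequenced ribosomal-RNA-depleted total RNA from dissected cerebellum, cortex, hippocampus and olfactory bulb of C57BL/6 mice. Each region had 3 libraries from wild-type mice and 3 from mice labelled as knockouts of Cdr1as, the locus of an abundant brain circular RNA that carries many binding sites for a microRNA. Animals in both genotypes were otherwise untreated as far as the labels say, and the age of the mice, the kind of knockout allele and the number of animals behind a library are not given in them. Because the labels do not say that replicates came from separate animals, the p-values below measure the spread between these libraries, which may be technical.

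Neuropeptides are made as long precursor proteins that are sorted into dense-core granules, cut there by prohormone convertases, trimmed by carboxypeptidase E and released to act on G-protein-coupled receptors. Granins are acidic proteins that are packed with the peptides and take part in forming the granules. In the forebrain most peptide precursors mark sparse, defined cell types such as inhibitory interneurons or hypothalamic neurons, while granins and processing enzymes are made by many neurons and endocrine cells.

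Gene counts summed to 5175203 to 30459968 per library, and the 3 shallowest libraries were olfactory bulb knockout 2, cerebellum knockout 1 and olfactory bulb wild type 1. Reads assigned to no feature made up 20.34% to 62.92% of a library. The Cdr1as entry held 0 to 13 counts in knockout libraries and 5617 to 130878 in wild-type libraries, as labelled. All 10 cerebellum markers, 8 cortex markers, 9 hippocampus markers and 10 olfactory bulb markers were called higher in their own region in wild type. All 11 striatum markers, genes typical of the neurons beneath the cortex, were also called higher in the cortex libraries than in the other regions. Levels are given as CPM, a gene's counts per 1000000 gene counts of the library, scaled between libraries by TMM, as mean ± SD of 3 libraries. Levels of different genes are compared only as CPM per kilobase of exon.

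In the wild-type libraries most neuropeptide precursors were lowest in cerebellum, and the cortex libraries had the highest sum. Summed over the 23 precursors, the wild-type cortex libraries had 543.7 to 707 CPM, the hippocampus 281.9 to 503.1, the olfactory bulb 301.3 to 336.7 and the cerebellum 83.52 to 113.5. The cerebellum was thus below every library of the other regions, and the cortex above every one. The highest mean was in cortex for 12 precursors, in olfactory bulb for 6, in hippocampus for 5 and in cerebellum for none, and 16 of the 23 had their lowest mean in cerebellum. For comparison, 32.2% of the 17915 genes had their highest mean in cerebellum and 21.9% in cortex, 20.7% in hippocampus and 25.1% in olfactory bulb, and 30.9% had their lowest mean in cerebellum. For 15 of the 32 members with counts enough to be compared, every library of the highest region lay above every other wild-type library, as it did for 31.2% of all genes.

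**Figure D1:**
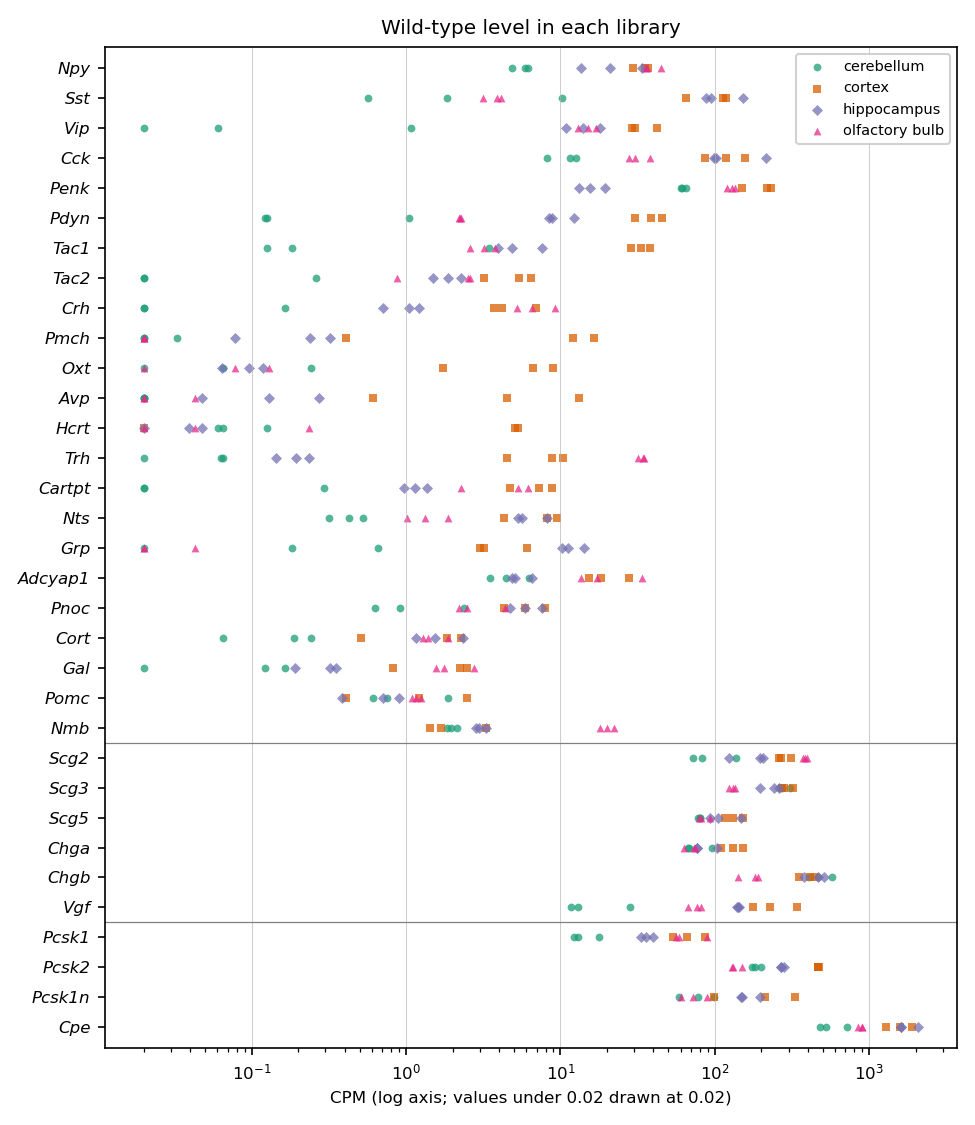
CPM of each of the 33 genes (log axis) in the 12 wild-type libraries, 1 point per library, coloured by region; horizontal lines separate precursors, granins and processing genes. Of the 23 precursors, 16 have their lowest mean in cerebellum, and of the 10 granins and processing genes, 9 have a highest regional mean of 1.67 to 4.80 times their own lowest.

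Each region was tested against the mean of the other 3 within the 12 wild-type libraries, and a gene was called at an adjusted p under 0.05 over all genes (edgeR quasi-likelihood test, Benjamini-Hochberg). Of the 32 genes tested, 28 were called higher in cortex, where 18.4% of all genes were, and 1 was called lower, where 13.5% were. The cerebellum had 2 called higher and 23 lower, beside 22.0% and 23.1% of all genes. In hippocampus 12 were called higher and 3 lower (14.8% and 9.87% of all genes), and in olfactory bulb 11 and 11 (18.0% and 16.8%). The median log2 difference of the 32 was 1.86 in cortex, -2.20 in cerebellum, 0.26 in hippocampus and -0.33 in olfactory bulb, and that of all genes lay between -0.01 and 0.02 in each. Pmch and Avp each had 1 region with no count at all, and with that region set at 3 counts over its 3 libraries the medians became 1.86, -2.12, 0.17 and -0.33. Since the tissue was sequenced in bulk, fewer cells of a type and less RNA per cell cannot be told apart.

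The 12 knockout libraries, which the first fit did not use, gave the same contrast again. Of the 28 genes called higher in wild-type cortex, 24 were called higher in knockout cortex too, where 15.7% of all genes were, and Nmb was again called lower (9.86% of genes). The cerebellum kept 21 of its 23 lower calls (20.5% of genes) and 0 of its 2 higher calls (17.9%). The hippocampus kept 8 of 12 higher calls (11.6%) and 2 of 3 lower calls (7.21%), and the olfactory bulb all 11 higher calls (14.4%) and 7 of 11 lower calls (12.4%). Of the 33 genes, 25 had their highest mean in the same region in both genotypes. With cortex wild type 1 and wild type 3 left out, a setting chosen after their hypothalamic peptides (below) were seen, 15 of 32 genes were called higher in cortex, 0 lower, and 1663 genes in place of 3292; the remaining cortex library was then assumed to vary like the other regions.

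**Figure D2:**
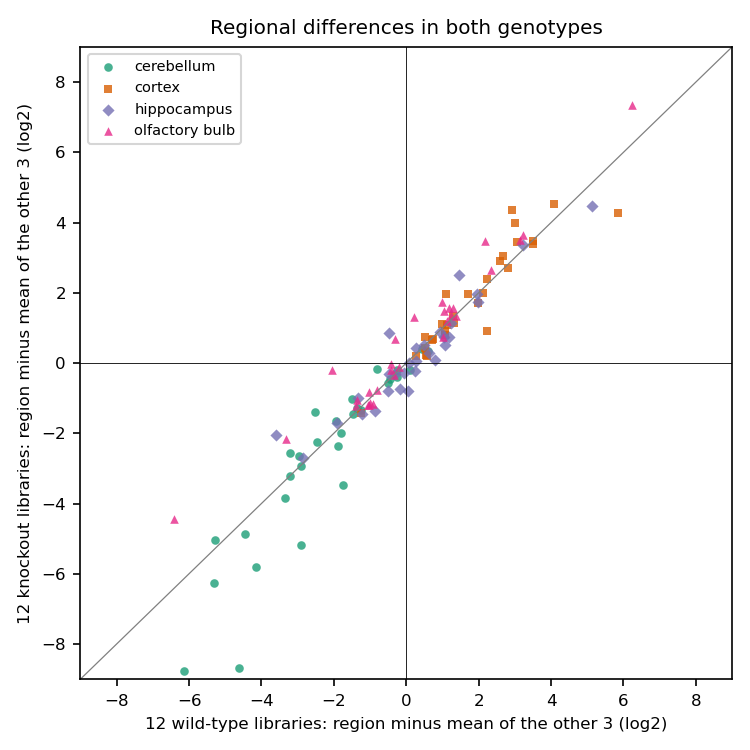
Each point is a gene in 1 region: its log2 difference from the mean of the other 3 regions in the wild-type libraries (x axis) and in the knockout libraries (y axis), without Pmch and Avp, which had a region at 0. The grey line marks equal values; Trh in olfactory bulb lies at 6.25 and 7.34.

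Opioid and tachykinin precursors, which mark projection neurons of the striatum as well as scattered cortical cells, were highest in cortex. Penk, the enkephalin precursor, measured 149.7, 219.0 and 231.5 CPM in the wild-type cortex libraries and 119.6 to 134.2 in olfactory bulb, against 13.1 to 19.3 in hippocampus. The cortex libraries lay above those of every other region, and Penk was the precursor with the smallest p in cortex (log2 difference 1.99 ± 0.12 SE, adjusted p = 3.69e-08, edgeR). In hippocampus it was 2.86 log2 units below the other regions' mean (-2.86 ± 0.16). Pdyn, the dynorphin precursor, measured 30.2 to 45.1 CPM in cortex, 8.48 to 12.2 in hippocampus, 2.19 to 2.26 in olfactory bulb and 0.122 to 1.05 in cerebellum, an order in which no neighbouring regions overlapped. Its cortex difference was 4.07 ± 0.27 (adjusted p = 7.47e-08, edgeR), and in bulb it was called lower (-1.38 ± 0.36), a call lost without cerebellum wild type 1 (-0.71). Tac1, the substance P precursor, had 28.8 to 37.7 CPM in cortex and at most 7.56 in every other wild-type library, and its relative Tac2, the neurokinin B precursor, 3.17 to 6.40 CPM in cortex and at most 2.58 elsewhere. Pnoc, the nociceptin precursor of the same opioid family, differed from Penk and Pdyn in that cortex (6.04 ± 1.80) and hippocampus (6.07 ± 1.45) had overlapping libraries.

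The striatum markers varied between the cortex libraries. In the order of the replicate numbers, their sum was 731.3, 1268 and 1273 CPM in the wild-type libraries and 1035, 1207 and 740.3 in the knockout libraries, and Penk was lowest in knockout 3 (119.1) and wild type 1 (149.7), the libraries with the lowest sums. In the other regions the sum lay between 160.9 and 391.9 CPM. Within cortex Penk was highest in wild type 3 and wild type 2, the libraries with the highest sums. Knockout 1 and knockout 2 lay between, with 188.9 and 179.2 CPM of Penk, the reverse of the order of their sums. Pdyn, at 38.8, 30.2 and 45.1 CPM in wild type and 31.2, 32.2 and 34.6 in knockout, was higher in wild type 1 than in wild type 2 and highest of the knockout libraries in knockout 3. Tac1 had 28.8, 33.3 and 37.7 CPM in wild type and 25.1, 29.7 and 28.2 in knockout, lowest in knockout 1. Penk at 127.6 ± 7.40 CPM in wild-type olfactory bulb stood beside a striatum sum of 214.7 to 257.7. The part of striatal tissue in the cortex levels of Penk, Pdyn and Tac1 was not tested.

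Several precursors were high in both cortex and hippocampus. Sst, the somatostatin precursor, measured 117.8, 65.3 and 113.3 CPM in wild-type cortex and 151.6, 93.6 and 87.5 in hippocampus, which overlapped, against 3.14 to 4.15 in olfactory bulb and 0.567 to 10.2 in cerebellum. It was called higher in hippocampus (log2 difference 3.23 ± 0.45) and cortex (adjusted p = 0.000557, edgeR) and lower in olfactory bulb (-3.33 ± 0.66) and cerebellum (-2.90 ± 0.61). The olfactory bulb had the highest sum of 15 inhibitory interneuron markers, at 4231 to 4392 CPM, against 1318 to 1478 in hippocampus. Cck, the cholecystokinin precursor, showed the same pair of high regions, with 120.2 ± 35.2 CPM in cortex and 137.8 ± 65.8 in hippocampus, against 32.1 ± 5.38 in olfactory bulb and 10.8 ± 2.30 in cerebellum. Cort, the cortistatin precursor, had means of 1.52 to 1.68 CPM in the 3 forebrain regions, whose libraries overlapped, and was called higher only in hippocampus among the wild-type contrasts (1.23 ± 0.42, adjusted p = 0.0438, edgeR). Nts, the neurotensin precursor, was called higher in cortex (2.23 ± 0.26) and hippocampus (1.95 ± 0.26).

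Vip, the vasoactive intestinal peptide precursor, was highest in cortex (42.2, 29.0 and 30.3 CPM), with olfactory bulb (15.1 ± 2.01) and hippocampus (14.3 ± 3.65) overlapping below it. Its cerebellum difference was -5.29 ± 0.53, where wild type 1 held 33 of 34 counts, and it was -8.99 without that library. Npy, the neuropeptide Y precursor, had its highest mean in olfactory bulb (39.0 ± 4.80 CPM), with cortex (33.8 ± 3.80) overlapping it, hippocampus (22.7 ± 10.2) overlapping cortex but not bulb, and 5.64 ± 0.679 in cerebellum. Cartpt, the CART precursor, was higher in cortex (6.91 ± 2.04) and olfactory bulb (4.58 ± 2.06) than in hippocampus (1.16 ± 0.201), with 0 counts in 2 of 3 cerebellum libraries (cerebellum difference -4.61 ± 0.64). Without cerebellum wild type 1, which held all 9 counts, the fitted value was -8.85, against a region with 0 counts. Adcyap1, the PACAP precursor, followed the same cortex and olfactory bulb pattern at 20.5 ± 6.49 and 21.5 ± 10.7 CPM, and was called lower in hippocampus (-1.21 ± 0.29).

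Trh, Nmb, Crh and Gal had their highest wild-type mean in olfactory bulb, and all but Nmb were also called higher in cortex. Trh, the thyrotropin-releasing hormone precursor, measured 31.7, 34.7 and 34.0 CPM in wild-type bulb, 4.51 to 10.4 in cortex, 0.143 to 0.235 in hippocampus and at most 0.0655 in cerebellum. No regions overlapped, and the bulb mean was 4.23 times that of cortex, the next region (bulb difference 6.25 ± 0.24, adjusted p = 1.07e-10, edgeR; its size also rests on regions with few counts). Trh was also called higher in cortex (3.49 ± 0.27, and 3.48 ± 0.36 in the knockout libraries). It was called lower in hippocampus (-3.61 ± 0.60) and, with 3 counts over the 3 libraries, in cerebellum. Nmb, the neuromedin B precursor, had 18.1, 19.9 and 22.3 CPM in bulb and at most 3.30 in any other wild-type library. It was the only one of the 32 called lower in cortex (-1.26 ± 0.24), a call lost without cortex wild type 1 and 3 (-0.58).

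Crh, the corticotropin-releasing hormone precursor, measured 9.27, 5.25 and 6.49 CPM in bulb and 3.69 to 6.99 in cortex, which overlapped, 0.712 to 1.22 in hippocampus and 0.164, 0 and 0 in cerebellum. Its difference was 3.22 ± 0.36 in bulb and 2.58 ± 0.37 in cortex, both called higher. In cerebellum it was -5.32 ± 0.60, from 5 counts that were all in wild type 1. Without that library the fitted value was -8.81, against a region with 0 counts. Gal, the galanin precursor, was called higher in bulb (2.33 ± 0.44, from 2.03 ± 0.638 CPM) and cortex (2.22 ± 0.44, from 1.85 ± 0.899). In the knockout libraries the bulb call held (2.66 ± 0.64) and the cortex call was lost (0.92 ± 0.67). Within wild-type cortex, Gal was higher in wild type 1 and 3 than in wild type 2. Against these stood Grp, the gastrin-releasing peptide precursor, highest in hippocampus with 14.3, 10.2 and 11.2 CPM there and 2.99 to 6.07 in cortex. Grp was called higher in cortex as well (3.06 ± 0.50, and 3.45 ± 0.46 in the knockout libraries). Only 1 wild-type bulb library held any Grp read (0, 0.0431 and 0 CPM). The hippocampus mean was 2.91 times that of cortex (hippocampus difference 5.12 ± 0.44, adjusted p = 7.93e-07, edgeR), and Grp was called lower in bulb, from 1 count in all. The related bombesin-family genes Nmb and Grp thus had their highest means in different regions.

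Granins and processing genes differed less between regions than most precursors. The highest regional mean was 1.67 to 4.80 times the lowest for 9 of these 10 genes and 14.1 times for Vgf, against 4.55 times or more for every precursor with a fold except Pomc (2.06). Per kilobase of exon, wild-type cortex had 605.1 ± 114.9 CPM of Cpe, the carboxypeptidase that trims cut peptides, and 146.9 ± 18.1 of Chgb, against 137.0 ± 40.3 of Sst, 122.4 ± 27.0 of Penk and 1.04 ± 0.792 of Pomc. The other 8 granins and processing genes had means below those of both Sst and Penk on that scale, from 12.25 ± 2.99 for Pcsk1 to 111.1 ± 11.1 for Scg2. Cpe itself measured 1764 ± 268.8 CPM in hippocampus, 1579 ± 299.7 in cortex, 876.7 ± 31.8 in olfactory bulb and 569.8 ± 125.9 in cerebellum, where hippocampus and cortex overlapped. Chgb, chromogranin B, was the single member with its highest mean in cerebellum: 572.2, 462.5 and 404.1 CPM there, 348.9 to 507.0 in cortex and hippocampus, and 141.9 to 191.0 in bulb. The cerebellum libraries overlapped those of cortex and hippocampus, and the cerebellum difference of 0.60 ± 0.13 (adjusted p = 0.00133, edgeR) was 0.34 in the knockout libraries and no longer called. Scg3, secretogranin III, was also called higher in cerebellum (0.44 ± 0.10; 0.41 and not called in the knockout libraries), with 280.3 ± 23.2 CPM beside 291.8 ± 25.7 in cortex. Both genes were called lower in bulb, Chgb at -1.36 ± 0.14 and Scg3 at -1.04 ± 0.11, and those low values enter the mean against which cerebellum was set.

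Scg2, secretogranin II, went the other way, with 392.6, 370.6 and 382.1 CPM in wild-type bulb, above all of 260.2 to 311.5 in cortex, 123.7 to 206.3 in hippocampus and 72.3 to 136.1 in cerebellum. Vgf, a granin-like precursor regulated by neurotrophins, had the widest range of the granins, with 341.8, 177.2 and 227.2 CPM in cortex, 139.7 to 143.5 in hippocampus, 67.1 to 80.7 in bulb and 11.7 to 28.2 in cerebellum. No regions overlapped, and its cortex difference was 2.11 ± 0.21 (adjusted p = 4.85e-06, edgeR). Chga, chromogranin A, had its highest mean in cortex (130.6 ± 21.7), as did Scg5, the chaperone 7B2 of the convertase PC2 (132.5 ± 18.2). Of the convertases, Pcsk2, which encodes PC2, measured 468.0, 468.4 and 470.5 CPM in cortex, 272.1 ± 8.12 in hippocampus, 184.0 ± 12.8 in cerebellum and 136.5 ± 11.2 in bulb, with no overlap. Pcsk1, which encodes PC1/3, had overlapping libraries in cortex (53.7 to 86.8 CPM) and bulb (55.7 to 89.1) and lower means in hippocampus (33.3 to 39.7) and cerebellum (12.2 to 17.7). In olfactory bulb the convertases were thus called in opposite directions, Pcsk1 at 1.03 ± 0.16 and Pcsk2 at -1.07 ± 0.08. Pcsk1n, the proSAAS inhibitor of PC1/3, ranged from 98.1 to 332.5 CPM within wild-type cortex alone.

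The rest of the pathway was read from lists written for it. Of 35 neuropeptide receptors tested, 29 were called higher and 2 lower in wild-type cortex, 3 and 23 in cerebellum, 19 and 3 in hippocampus and 11 and 9 in bulb. For these and the lists that follow, the shares of all genes called higher and lower were 18.4% and 13.5% in cortex, 22.0% and 23.1% in cerebellum, 14.8% and 9.87% in hippocampus and 18.0% and 16.8% in bulb. The receptor with the smallest p was Sstr2, a somatostatin receptor, in cortex (21.4 ± 2.41 CPM, 3.27 ± 0.22), Npy2r in hippocampus (43.7 ± 5.35, 5.34 ± 0.20) and the delta opioid receptor Oprd1 in cerebellum (1.11 ± 0.166, -4.46 ± 0.18). In bulb it was Vipr2, a receptor of VIP and PACAP, at 84.3 ± 5.29 CPM (4.70 ± 0.14), while Sstr2 there had 0.877 to 1.88 CPM. Of 21 genes of dense-core granule formation and release, 12 were called higher and 1 lower in cortex, 6 and 8 in cerebellum, 8 and 2 in hippocampus and 3 and 13 in bulb. Cadps2, a priming factor for granule release, had 487.1 ± 37.7 CPM in cerebellum and 30.1 ± 1.59 in bulb and gave the smallest p in both. Rph3a led in cortex (1.73 ± 0.12) and Syt9 in hippocampus (-2.03 ± 0.20).

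Of 20 other peptide-processing and peptide-degrading genes, 7 were called higher and 4 lower in cortex, led by Pam, the enzyme that amidates peptides (1.29 ± 0.10). The counts were 7 and 9 in cerebellum, led by the convertase Pcsk6 (2.30 ± 0.11), 5 and 4 in hippocampus, led by the sorting receptor Sort1 (0.94 ± 0.08), and 3 and 6 in bulb, led by Qpct, glutaminyl cyclase (1.52 ± 0.26). Among 14 other secreted peptide genes tested, 5 were called higher and 6 lower in cerebellum, 5 and 1 in cortex, 2 and 2 in hippocampus and 4 and 3 in bulb. Cbln1, which encodes the synaptic organiser cerebellin, led in cerebellum at 102.6 ± 4.88 CPM (5.49 ± 0.26), Nppa, atrial natriuretic peptide, in bulb at 5.38 ± 3.82 (0 counts in wild-type cerebellum, so no fold is given) and Fam19a1 in both cortex (3.14 ± 0.30) and hippocampus (3.34 ± 0.30).

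Several members are textbook targets of cyclic-AMP signalling through the element TGACGTCA, so their promoters were searched for it. Promoters were RefSeq windows on GRCm38.p6 from 250 bases before to 50 after the annotated start, 300 bases in all, matched by symbol, since the counts were made on mm9. An entry was found for 27 of the 33 genes and not for Pnoc, Cpe, Grp, Crh, Penk and Vgf. The element, which reads the same on both strands, was present in 5 of the 27 (18.5%) and in 549 of 27025 genes (2.03%). Its shorter core TGACG, which lies within the full element and was searched on both strands, was present in 17 of the 27 (63.0%) and in 23.0% of genes. Because known targets were among the members before the search, these shares are a description and not a test. The members with the full element are shown because they cross the groups above: a somatostatin and a CART precursor, 2 granins and a convertase. Each line gives 60 bases, 5′ to 3′ on the strand of the gene, with the element in capitals.

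Sst: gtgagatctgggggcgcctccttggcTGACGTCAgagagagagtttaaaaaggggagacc
Cartpt: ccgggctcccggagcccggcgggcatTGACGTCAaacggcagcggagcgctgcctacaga
Scg2: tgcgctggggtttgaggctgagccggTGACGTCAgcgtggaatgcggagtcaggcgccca
Chgb: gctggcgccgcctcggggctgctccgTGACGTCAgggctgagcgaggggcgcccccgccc
Pcsk1: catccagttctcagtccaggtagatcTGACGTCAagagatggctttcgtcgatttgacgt

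The windows are chr16:23890859-23890918 (minus strand) for Sst, chr13:99900762-99900821 (minus) for Cartpt, chr1:79440061-79440120 (minus) for Scg2, chr2:132781544-132781603 (plus) for Chgb and chr13:75089753-75089812 (plus) for Pcsk1. The first base of the element lay 48 bases before the start in Sst, 68 in Scg2, 72 in Chgb, 78 in Pcsk1 and 112 in Cartpt. A match describes these letters and not a bound site. Of the 5 genes, Sst, Cartpt, Scg2 and Pcsk1 were called higher in wild-type cortex and lower in cerebellum, as most members were. Chgb was called higher in cerebellum. In bulb Cartpt, Scg2 and Pcsk1 were called higher and Sst and Chgb lower. In the knockout libraries Scg2 (0.19) lost its cortex call and Chgb (0.34) its cerebellum call.

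Hypothalamic peptides in wild-type cortex lay mostly in 2 libraries. Pmch, the melanin-concentrating hormone precursor, and Hcrt, the orexin precursor, are markers of lateral hypothalamic neurons, and Oxt and Avp encode oxytocin and vasopressin. Pmch had 251, 4 and 307 counts in the wild-type cortex libraries, in the order of their replicate numbers, and 1, 13 and 6 in the knockout ones. Hcrt had 81, 0 and 128 counts in wild type and 3, 1 and 0 in knockout, and at most 3 in any library of another region. Wild type 1 and 3 were therefore far above wild type 2, which lay with the knockout libraries for both genes.

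Oxt showed the same split less sharply, with 8.94, 1.74 and 6.61 CPM in cortex wild type and 0.132, 0.991 and 1.88 in knockout. Avp had 13.1, 0.614 and 4.53 CPM in wild type and 0.965, 1.58 and 3.41 in knockout, and 0 counts in all 6 cerebellum libraries, in the 3 wild-type ones of which 3 counts would amount to 0.0985 to 0.190 CPM. Oxt and Avp lie side by side and share nearly identical sequence for their neurophysin part, so reads from that part could be split between them or left uncounted. The summed level of 17 hypothalamus markers was 208.1, 89.9 and 154.6 CPM in the wild-type cortex libraries and 75.1, 102.4 and 122.9 in the knockout ones, at most 83.7 in any library of the other regions, and no marker was at 0 in all 3 wild-type cortex libraries. Irs4 had 16.9, 3.58 and 8.98 CPM in wild type against 2.94 to 5.91 in knockout, and Sim1, Calcr and Fezf1 were likewise higher in wild type 1 and 3 than in any other cortex library. Without these 2 libraries, Pmch was no longer called higher in cortex than in the other regions (adjusted p = 0.0824, edgeR), while Oxt and Avp still were.

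**Figure D3:**
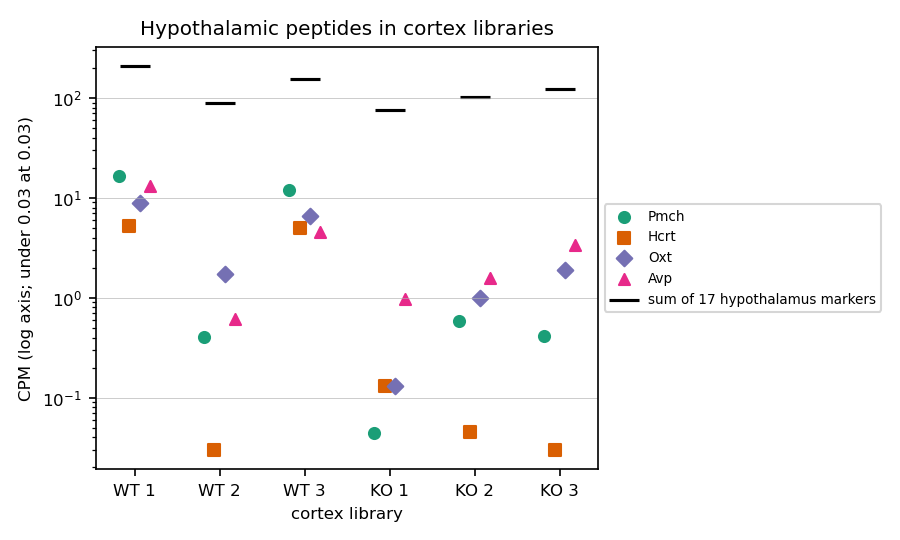
CPM (log axis) of Pmch, Hcrt, Oxt and Avp in the 6 cortex libraries, with the sum of 17 hypothalamus markers as a black dash and values under 0.03 drawn at 0.03. Wild type 1 and 3 carry all 4 peptides at 4.53 to 16.4 CPM, while wild type 2 and the 3 knockout libraries lie at or below 3.41.

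Other members stood out in single libraries. A member was listed where 1 of the 6 libraries of a region held over 50% of the member's summed CPM with at least 10 counts. In cerebellum, wild type 1 held 10.2 CPM of Sst (311 counts, 67.4% of the sum), against 0.567 and 1.83 in the other wild-type libraries and 0.149, 1.41 and 0.958 in knockout. It also held the most Pdyn (1.05 CPM; 0.126 and 0.122 in wild type 2 and 3 and 0, 0.353 and 0 in knockout) and Grp (0.655; 0 and 0.183 in wild type and 0, 0.177 and 0.120 in knockout). The shallow cerebellum knockout 1 held the most Tac1 (6.71 CPM; 1.30 and 0 in knockout 2 and 3, 3.44, 0.126 and 0.183 in wild type) and Vip (2.68 CPM from 18 counts; 0 in the other knockout libraries and 1.08, 0 and 0.0610 in wild type). These 2 libraries also had the highest hypothalamus marker sums of cerebellum, 83.0 and 83.7 CPM against 47.4 to 53.7. These markers are not confined to hypothalamus. Of 8 tested in wild type, 2 were called higher and 0 lower in cerebellum (22.0% and 23.1% of all genes), led by Hdc (2.80 ± 0.43). The part of these markers in the result was not tested.

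Pomc, the precursor of ACTH and beta-endorphin in pituitary and hypothalamus, was low in all regions, with wild-type means of 0.665 to 1.37 CPM and overlapping libraries between regions next to each other in that order. A single olfactory bulb library, knockout 3, had 7.60 CPM (142 counts, 61.9% of the 6-library sum), against 0.989 and 0.175 in knockout 1 and 2 and 1.25, 1.16 and 1.10 in wild type. The same library had 524.8 CPM over 9 pituitary markers, of which growth hormone, Gh, made 416.7 and prolactin, Prl, 96.4, while the other 5 bulb libraries summed to at most 6.89. Cortex knockout 3 had the next highest pituitary sum of all 24 libraries, 43.9 CPM, and the next highest Pomc, 3.96. The part of pituitary RNA in these levels was not tested.

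**Figure D4:**
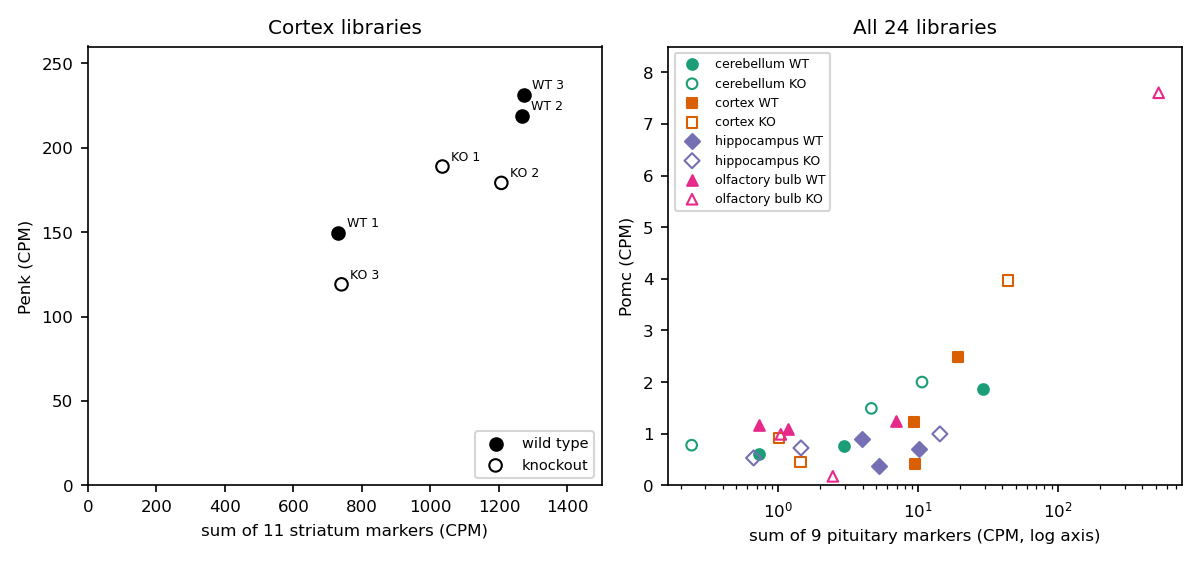
Left, Penk against the sum of 11 striatum markers in the 6 cortex libraries (both CPM, filled wild type, open knockout); right, Pomc against the sum of 9 pituitary markers (log axis) in all 24 libraries. Penk is lowest in the 2 cortex libraries with sums of 731.3 and 740.3, and olfactory bulb knockout 3 stands alone at 7.60 CPM of Pomc and 524.8 CPM of pituitary markers.

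The second question of the design was whether loss of Cdr1as changed these genes. No member passed an adjusted p of 0.05 between knockout and wild type in any region (edgeR quasi-likelihood test, Benjamini-Hochberg over all genes; also 0 in each region with DESeq2). The test itself called few genes: 1 of 15536 in cerebellum (0.00644%), 1 of 15777 in cortex (0.00634%), 1 of 16119 in hippocampus (0.00620%) and 4 of 15831 in olfactory bulb (0.0253%). The 1 gene in cerebellum, cortex and hippocampus was the Cdr1as entry itself. In olfactory bulb the 4 were Cdr1as and 3 immediate early genes (below). After the filter on low counts in each region, 19 of the 33 genes could be tested in cerebellum, 32 in cortex, 27 in hippocampus and 28 in bulb. At an unadjusted p under 0.05 there were 1 in cerebellum, 5 in cortex, 4 in hippocampus and 2 in bulb, beside 1.89%, 5.64%, 4.01% and 2.43% of all genes. A p that misses the threshold does not show that a level stayed the same. After adjustment over all genes, a change of several SE could also miss it, as Scg2 in cortex did (-0.37 ± 0.12, adjusted p = 0.858, edgeR).

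**Figure D5:**
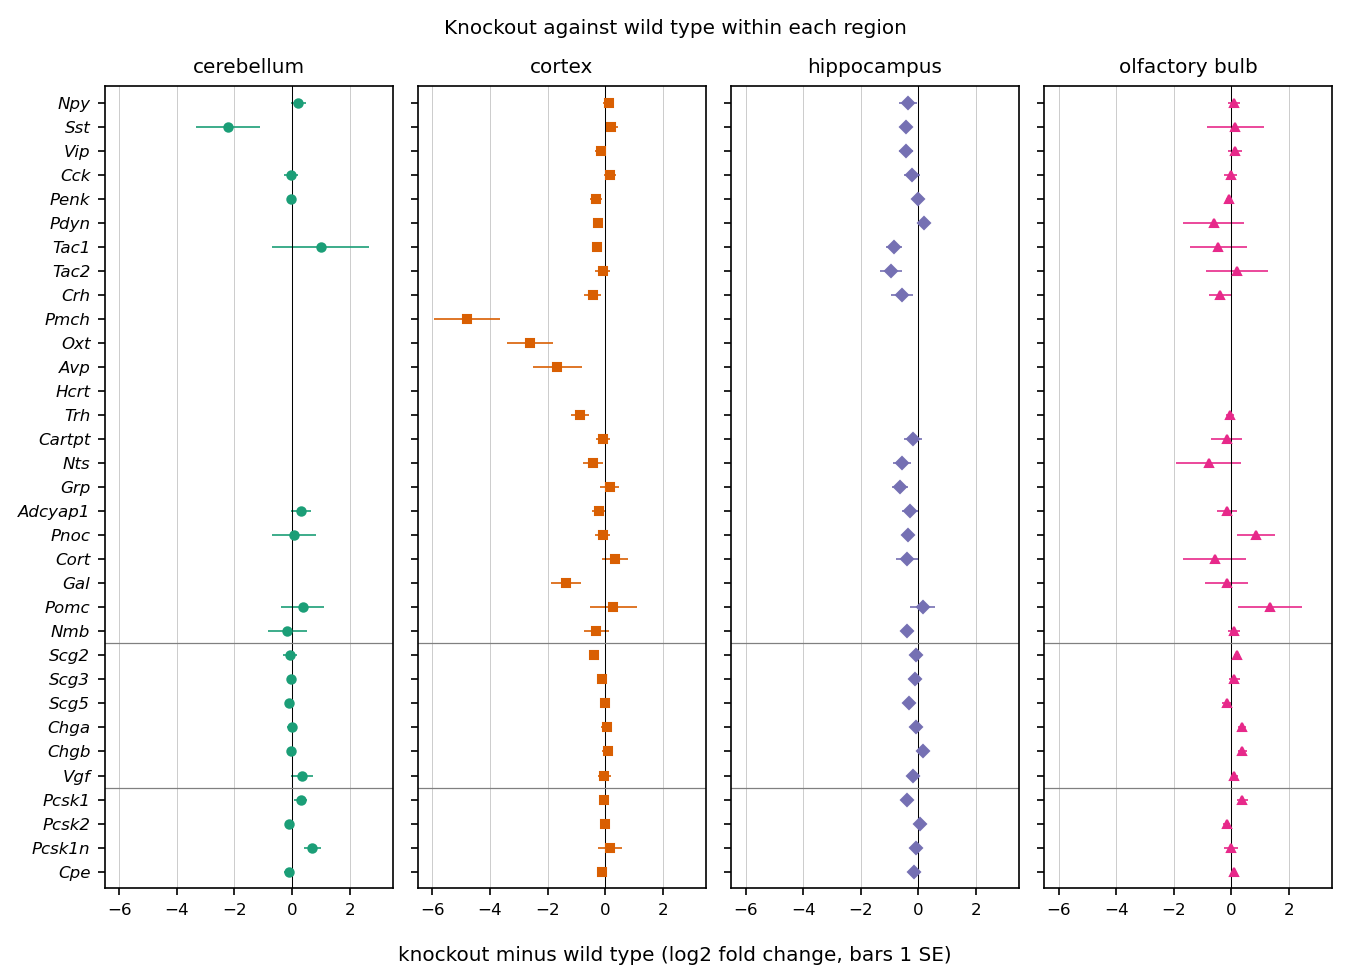
Log2 fold change of knockout against wild type (x axis, bars 1 SE) for every gene tested in each region; horizontal lines separate precursors, granins and processing genes. Most values lie within 1 log2 unit of 0, with wide bars for genes of low level, and the cortex values of Pmch (-4.80) and Oxt (-2.60) lie farthest to the left.

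Among the abundant granule genes, Cpe and Pcsk2 lay near 0. In cortex, Cpe measured 1640, 1268 and 1558 CPM in knockout and 1875, 1276 and 1585 in wild type (log2 fold change -0.10 ± 0.15), and Pcsk2 417.6 to 547.9 against 468.0 to 470.5 (-0.01 ± 0.11). Across regions the log2 fold change of Cpe lay between -0.13 and 0.09 and that of Pcsk2 between -0.16 and 0.07. Libraries of both genotypes overlapped for both genes in every region. Scg2 was the granin farthest from 0 in cortex, with 248.3, 185.1 and 220.3 CPM in knockout against 311.5, 260.2 and 266.4 in wild type (-0.37 ± 0.12, adjusted p = 0.858, edgeR). All knockout libraries were below all wild-type ones for Scg2, a separation found in this direction for 6.89% of genes in cortex. No member was separated in the other direction, as 6.45% of genes were.

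In cortex the other 4 members with an unadjusted p under 0.05 were precursors, all lower in knockout (all 5 of 32 were lower, beside 3.02% of genes, and 0 were higher, beside 2.62%). Pmch gave -4.80 (adjusted p = 0.844, edgeR) and Oxt -2.60 ± 0.80, resting on the counts of wild type 1 and 3 given above, and without both libraries they gave -0.26 and -0.87. Trh measured 4.25, 3.69 and 5.29 CPM in knockout and 10.4, 4.51 and 8.78 in wild type (-0.87 ± 0.30, adjusted p = 0.858, edgeR), which overlapped, and gave -0.05 without wild type 1 and 3. Gal measured 0.482, 0.540 and 1.25 CPM against 2.48, 0.819 and 2.24 (-1.36 ± 0.53), again high in wild type 1 and 3. Most markers of other tissues and of interneurons also gave values below 0 in cortex, where 49.9% of all genes did. Of the 8 hypothalamus markers tested, 7 were below 0 (median -0.73), and 3 of them had an unadjusted p under 0.05. All 9 olfactory bulb markers tested were below 0 (median -1.17), 7 of them at that level, and their sum was 118.7, 53.96 and 69.96 CPM in wild type and 36.4 to 43.9 in knockout. Of 10 thalamus markers 9 were below 0 (median -0.42, 3 at that level), with sums of 244.6, 177.6 and 312.4 CPM against 164.3 to 185.1. Of 15 inhibitory interneuron markers 13 were below 0 (median -0.10, 4 at that level), with sums of 1731 to 2312 CPM against 1806 to 1938. Calb2 (-1.01 ± 0.35) is in the olfactory bulb, thalamus and interneuron lists and was counted in each. None of these markers was called after adjustment (edgeR), and their part in the result was not tested. The median over the 32 members was -0.09, with 22 below 0 (49.9% of all genes were), and it changed sign to 0.06 without wild type 1 and to 0.21 without wild type 1 and 3.

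Leaving out cortex wild type 2, which held the fewest Pmch and Hcrt counts of the 3 wild-type cortex libraries, 2 members passed the threshold: Pmch (-5.35, adjusted p = 0.0464) and Hcrt (-6.15, adjusted p = 0.0168, edgeR). The low-count filter had left Hcrt out of the main cortex test. Without that filter Hcrt was tested too and was not called. Same-numbered cortex libraries of the 2 genotypes deviated together, and with the replicate number as a block 30 genes in place of 1 were called in cortex and still 0 members. With that block the adjusted p (edgeR) was 0.167 for Scg2 (-0.38), 0.189 for Trh (-0.82), 0.418 for Oxt (-2.54) and 0.464 for Pmch (-4.4). The share of reads in no feature was 20.34%, 56.19% and 34.9% in the cortex wild-type libraries and 30.47%, 53.75% and 33.61% in knockout.

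In hippocampus no member passed the adjusted threshold. Of 27 tested, 22 had a lower mean estimate in knockout (53.8% of all genes did), with a median of -0.29 against -0.02 for all genes, and -0.39 for the 17 precursors. The 4 members with an unadjusted p under 0.05 were all precursors and all lower, beside 2.06% of genes, and 0 were higher, beside 1.95%. Tac1 measured 2.39, 3.67 and 3.21 CPM in knockout and 7.56, 3.95 and 4.88 in wild type (-0.85 ± 0.28, adjusted p = 0.953, edgeR), without overlap. Tac2 gave -0.93 ± 0.38, with 1.66, 0.680 and 0.775 CPM against 2.27, 1.49 and 1.86. Grp gave -0.63 ± 0.28 (6.18, 11.6 and 5.48 against 14.3, 10.2 and 11.2). Sst gave -0.44 ± 0.20 (87.6, 78.9 and 83.0 against 151.6, 93.6 and 87.5). Grp, Sst and Tac2 overlapped between genotypes.

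Besides Tac1, the members Nmb (-0.39 ± 0.22), Vgf (-0.18 ± 0.09) and Pcsk1 (-0.39 ± 0.18) also had all hippocampal knockout libraries below all wild-type ones, which held for 3.26% of genes, and 0 members had them all above, as 6.58% of genes did. Hippocampus wild type 1 stood apart. It was the highest of the 6 libraries for Sst, Cck (213.7 CPM against 98.4 to 124.8), Scg5 (148.3 against 91.8 to 104.1) and Vip (18.1 against 7.51 to 13.9), and without it the median of the 27 members was -0.09 and Sst gave -0.14. Its share of reads in no feature was 37.01%, against 48.33% to 55.45% in the other hippocampus libraries, and with that share as a covariate the median was -0.13. Markers of the choroid plexus, the tissue that secretes cerebrospinal fluid, also differed: their sum was 2316, 36.6 and 1913 CPM in hippocampus wild type 1 to 3 and 35.4 to 43.9 in knockout, with all 8 tested markers lower in knockout at an unadjusted p under 0.05 and none called after adjustment. Without wild type 1 and 3, a setting chosen after these sums were seen, the median of the members was -0.15 and Tac1 gave -0.35. The part of choroid plexus RNA in the result was not tested.

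In olfactory bulb the members with an unadjusted p under 0.05 were the 2 chromogranins, both higher in knockout (beside 1.52% of genes), and 0 were lower (0.910%). Chga measured 109.7, 88.4 and 76.9 CPM in knockout and 63.0, 74.2 and 73.0 in wild type (0.38 ± 0.14, adjusted p = 0.992, edgeR). Chgb measured 288.1, 194.9 and 192.5 against 141.9, 191.0 and 181.3 (0.39 ± 0.17). Neither overlapped between genotypes, as held in this direction for 5.73% of genes, and 0 members were separated the other way (5.77%), and knockout 1 was the highest library for both. Without knockout 1 they gave 0.24 and 0.18. Pcsk1 followed at 0.39 ± 0.18 and Scg2 at 0.20 ± 0.10. The bulb peptides Trh (33.98, 32.92 and 29.56 CPM in knockout; -0.06 ± 0.14) and Nmb (24.3, 15.8 and 24.2; 0.10 ± 0.21) overlapped with wild type. The median of the 28 members was 0.04, with 14 on each side of 0 (52.2% of genes were below 0), and it was -0.14 without knockout 1. Without the 2 shallow bulb libraries, wild type 1 and knockout 2, the median was 0.19 and Pcsk1 gave 0.64 (adjusted p = 0.0709, edgeR). The shallow bulb knockout 2 had 0 counts of Sst, Pdyn, Tac1, Tac2, Nts and Cort, where 3 counts amount to 0.580 CPM, while knockout 1 and 3 had 8.95 and 3.11 CPM of Sst, and the bulb log2 fold changes of these 6 genes had an SE of 0.98 to 1.13.

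In cerebellum Pcsk1n was the only member with an unadjusted p under 0.05, with 189.8, 103.2 and 93.1 CPM in knockout and 77.9, 58.8 and 98.4 in wild type (0.70 ± 0.30, adjusted p = 0.949, edgeR). At that level 1.25% of genes were higher in knockout, while 0 members and 0.637% of genes were lower. The libraries overlapped for Pcsk1n, and the highest value was in the shallow knockout 1, without which it gave 0.31. Sst gave -2.24 ± 1.11, resting on wild type 1 (above), and -0.47 without it. Pcsk1 (0.30 ± 0.23) and Scg5 (-0.12 ± 0.10) had the next smallest p. Penk lay close together at 59.95, 58.98 and 64.19 CPM in knockout and 65.25, 60.02 and 60.76 in wild type (-0.03 ± 0.09). The median of the 19 members was -0.02, with 10 below 0 (56.9% of genes were), and it was 0.20 without wild type 1. The libraries of all 19 overlapped between genotypes, while 5.94% of genes were separated with knockout lower and 5.32% with knockout higher.

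None of the receptor, granule-machinery, processing or other secreted peptide genes was called between genotypes in any region by the same edgeR test. Of 32 receptors tested in cortex, 2 were higher and 5 lower at an unadjusted p under 0.05, beside 2.62% and 3.02% of all genes, led by Vipr2 (-1.56 ± 0.32, adjusted p = 0.679, edgeR). In hippocampus 0 of 32 receptors reached that level, in bulb 0 of 25 and in cerebellum 2 of 18, both higher (1.25% of all genes were), led by Crhr1, a receptor of Crh (0.40 ± 0.10). Immediate early genes, which neurons induce rapidly on activity, are given beside the members. Of 20 in the list, 16 were higher in knockout cortex at an unadjusted p under 0.05 (median 1.04), 12 in hippocampus (0.62), 17 in bulb (1.48) and 9 of 18 in cerebellum (0.71), and 3 in bulb were called after adjustment. The shares of all genes higher at that level were 2.62%, 1.95%, 1.52% and 1.25% in the same order. The members with the cyclic-AMP element shown above had cortex log2 fold changes of 0.22 ± 0.23 (Sst), -0.08 ± 0.24 (Cartpt), -0.37 ± 0.12 (Scg2), 0.09 ± 0.20 (Chgb) and -0.03 ± 0.17 (Pcsk1). In the same order, bulb had 0.14 ± 0.98, -0.16 ± 0.55, 0.20 ± 0.10, 0.39 ± 0.17 and 0.39 ± 0.18. Hippocampus had -0.44 ± 0.20, -0.17 ± 0.31, -0.09 ± 0.17, 0.16 ± 0.17 and -0.39 ± 0.18. Cerebellum, where Cartpt was not tested, had -2.24 ± 1.11 (Sst), -0.06 ± 0.25 (Scg2), -0.02 ± 0.16 (Chgb) and 0.30 ± 0.23 (Pcsk1). A link between these members and the early genes was not tested.

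Whether the knockout difference itself depended on the region was tested over all 24 libraries. No member passed (1 of 17915 genes did, 0.00558%; edgeR), and at an unadjusted p under 0.05 there were 2 members, Pmch and Trh, beside 1.51% of genes. Medians over the members were not compared between regions.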

How the data were processed

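The authors deposited 1 table per library with the number of reads counted on each gene, as unnormalised counts. The submitters' processing notes name mm9 as the build and list HTSeq 0.6.1p1, STAR 2.5.1b and bcl2fastq 2.17.1.14. The labels' protocols name TRIzol extraction, removal of ribosomal RNA with RNase H and a stranded library kit. No source used here says whether counting took strand into account. The 5 summary entries were left out. GENCODE annotation of GRCm38 gave gene names and exon lengths and matched 32897 of 37620 Ensembl identifiers (98.47% of counts). Lengths may differ from the models that were counted.

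Genotypes were compared within each region (3 against 3 libraries, filterByExpr at a minimum count of 10), and regions within the 12 wild-type libraries, with edgeR 4.0.16 in R 4.3.3 (TMM, robust quasi-likelihood F-test, two-sided, Benjamini-Hochberg). The scripts were tested on simulated data. SE is the log2 fold change divided by the root of F. DESeq2 1.42.0, other scaling, no filter, a replicate block, a covariate and libraries left out were tried. Same-numbered libraries of the 2 genotypes correlated above 0.1 for all 3 numbers only in cortex (0.45, 0.62 and 0.21). Between regions they did so for wild-type cerebellum with cortex and with bulb and for knockout cortex with cerebellum and with hippocampus. Named were, per region, the 4 members with the smallest p, the called members with the largest regional differences and those concentrated in 1 library. Members, lists and settings were chosen with earlier results of these data known.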

Additional observations from a re-analysis of the deposited data

How the results depend on the processing

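The knockout comparisons called 0 members in cerebellum, hippocampus and olfactory bulb under every setting run, and in cortex under all but 1. The number of genes called moved more. With DESeq2 it was 19 in cerebellum, 41 in cortex, 16 in hippocampus and 17 in bulb, and without a low-count filter 3, 7, 5 and 16. In 1 fit of all 24 libraries it was 5, 6 and 2 in cerebellum, cortex and hippocampus. The replicate block gave 30 in cortex, 6 in hippocampus and 11 in bulb, where between genotypes only the cortex numbers pair the libraries; the block changed no member's call between genotypes. Numbers also paired some regions within a genotype. With the block, 25 members in place of 23 were called lower in cerebellum and 12 in place of 11 in bulb, the other regional member counts were equal to those without it, and the interaction called 0 members. With the no-feature share as covariate it was 56 in cortex and 2 in hippocampus. Leaving out 1 library gave 1 to 3 genes in cerebellum, 1 to 3 in cortex (with 0 to 2 members, the 2 without wild type 2), 1 to 47 in hippocampus (47 without wild type 2) and 1 to 8 in bulb. In settings chosen after seeing the data, the count was 2 without cortex wild type 1 and 3 and 6 without hippocampus wild type 1 and 3, where the lone wild-type library was assumed to vary like the others. The interaction called 1 to 2 genes when each library was left out. Among regional contrasts, the knockout libraries called 0 members higher in cerebellum and 7 lower in bulb. In those libraries Chgb (0.34) and Scg3 (0.41) in cerebellum, Trh in hippocampus (-2.05) and Pdyn in bulb (-1.21) lost their calls, as did Pdyn in bulb (-0.71) without cerebellum wild type 1. Leaving out 1 wild-type library gave 1473 to 3110 genes lower in cortex, 7 to 13 members higher and 3 to 5 lower in hippocampus, and 6 to 14 lower in bulb. Without cortex wild type 1 and 3, cortex had 1663 genes higher and 899 lower with 15 and 0 members, and bulb 7 members lower. None of the called members with the largest regional differences changed sign, and the signs of other called values were not followed. Depth limits the peptides of low level most, since 3 counts amount to 0.4615 CPM in the shallow cerebellum library.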
